A study of Mus musculus with 7 samples.

Results

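Transcript levels of 41 genes that license replication origins, build the replication fork or supply deoxynucleotides were examined in brown fat of newborn mice with and without Gyk, the gene of glycerol kinase. The genes were taken from a list made by known function, with earlier results of these data known. Each was represented by the brightest of its probe sets of a single gene symbol, by mean signal over the 7 arrays. All 41 had such a probe set, out of 18193 genes represented on the arrays. The study hybridised total RNA of brown fat from male C57BL/6J mice aged 3 days, 1 sample per array, from 4 samples labelled KO (replicates 1 to 4) and 3 labelled WT (replicates 1, 3 and 4), with the wild type as the control. No other allele or treatment is given for either group. How the knockout allele was made, whether it acts in all cells, and whether the numbered replicates are separate animals is not stated in the labels, and p-values then measure only the spread between these samples, which may be technical. Gyk is X-linked, so a male carries a single copy. The probe table pairs 0 probe sets with the gene, so its own level was not analysed here and the labels alone give the genotypes.

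Before DNA can be copied, the origin recognition complex (ORC), Cdc6 and Cdt1 load the ring-shaped MCM helicase, made of Mcm2 to Mcm7, onto origins, a step called licensing that Gmnn (geminin) blocks by binding Cdt1. The helicase becomes active when Cdc45 and the GINS complex join it, polymerases then copy the strands while the sliding clamp PCNA holds them to DNA, and ribonucleotide reductase, thymidine kinase and dUTPase keep the deoxynucleotides supplied. Many of these genes are transcribed in bursts at the start of S phase under E2F transcription factors, so their transcripts are commonly read as signs of cycling cells. In the newborn, brown fat still grows through division of its precursor and stromal cells while its mature adipocytes burn lipid for heat.

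The values are signal intensities on a linear scale, tested as log2(signal + 30.6) with limma and Benjamini-Hochberg adjustment over 27022 probe sets, and a gene is said to have fallen or risen only where its adjusted p was under 0.05. Array medians lay between 131.5 and 154. The tissue label was checked on Ucp1, the uncoupling protein of brown fat, whose signal was 30978 ± 2388 (SD, n = 3) in wild type and 31505 ± 4635 (SD, n = 4) in KO, and 0 of 9 tested brown adipocyte markers passed in either direction (1 had an unadjusted p under 0.05 in limma). Of these markers Fabp3, a fatty acid binding protein, stood at -1.01 (adjusted p = 0.0946) and fell in the fit without KO replicate 2 (-1.20, adjusted p = 0.0179) and in fits by the runs of deposit numbers (0.0168 with the run as a covariate and 0.00576 in the second run alone). The array labelled KO replicate 2 stood apart. Its brightest probe set of Xist, an RNA made from the inactive X chromosome of females, read 2756.7 units (182.8 to 272.7 on the other arrays). On dimmer Xist probe sets it carried 893 units, where no other array passed 13.1, and 93, where none passed 43.5. Yet the label of this array, like the others, says male. It also carried signal of Y-linked genes: its brightest probe set of Eif2s3y read 1251.5 (1210 to 1565.8 on the other arrays), that of Kdm5d 325.1 (386.4 to 471.1) and that of Uty 475.3 (697.3 to 854). So both kinds of signal were present on this array, with the brightest probe sets of Kdm5d and Uty lower there than on any other. Dimmer probe sets differed: one of Uty was lowest on KO 2 (223.5). Another of Uty read 274.1 there, above the wild-type arrays, and one of Kdm5d read 98, above WT 1 (86.6). The results are therefore given with and without it. The arrays also fall into 2 runs of deposit numbers, one with WT 1, KO 1 and KO 2 and the other with the remaining 4 arrays, which the labels do not describe as a batch.

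In KO brown fat 3 of the genes fell: Mcm2 and Mcm5, both helicase subunits, and Rrm2, the regulated small subunit of ribonucleotide reductase. They were among 38 of the 41 genes whose probe set was bright enough to be tested, and 0 of the 38 rose (0 also at an unadjusted p under 0.05 in limma). Over all 13102 tested genes 0.71% were called lower and 1.14% higher. At an unadjusted p under 0.05, 20 of the 38 were lower, against 9.6% of all tested genes. The median log2 difference, KO minus wild type, was -0.37 over the 38, against -0.01 over all tested genes, and 31 of the 38 lay below 0, against 51.5% of all tested genes. In 15 of the 38 every KO array was below every wild-type array, against 8.37% of all tested genes, and in 0 of the 38 was every KO array above, against 8.33%. In bulk tissue, fewer cells of a type and less RNA per cell cannot be told apart.

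The count of fallen genes moved with single arrays. Without KO replicate 2 it was 13: Mcm2, Mcm3, Mcm4, Mcm5, Mcm6, Cdt1, Gins2, Rfc3, Rfc5, Rpa1, Rrm2, Tk1 and Dut, where 5.02% of all tested genes were called lower; again 0 rose (also 0 at an unadjusted p under 0.05 in limma), where 3.4% of all tested genes were called higher. With KO 1, KO 3, KO 4, WT 1, WT 3 or WT 4 left out in its place, the count was 0. In those fits 16 to 18 genes were lower at an unadjusted p under 0.05 in limma, a share not counted over all tested genes. In the same order, 31, 32, 32, 31, 33 and 30 of the 38 lay below 0. Over all probe sets the number called lower moved too, from 0 to 1138 with 1 array left out. With the deposit run as a covariate 5 genes fell, namely Mcm2, Mcm5, Gins2, Rrm2 and Dut, where 1.24% of all tested genes were called lower. Within the second run alone, of 2 KO and 2 wild-type arrays, 6 fell, namely these 5 and Tk1, at a background of 1.53%. The first run holds a single wild-type array, and its values are read array by array.

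**Figure D1:**
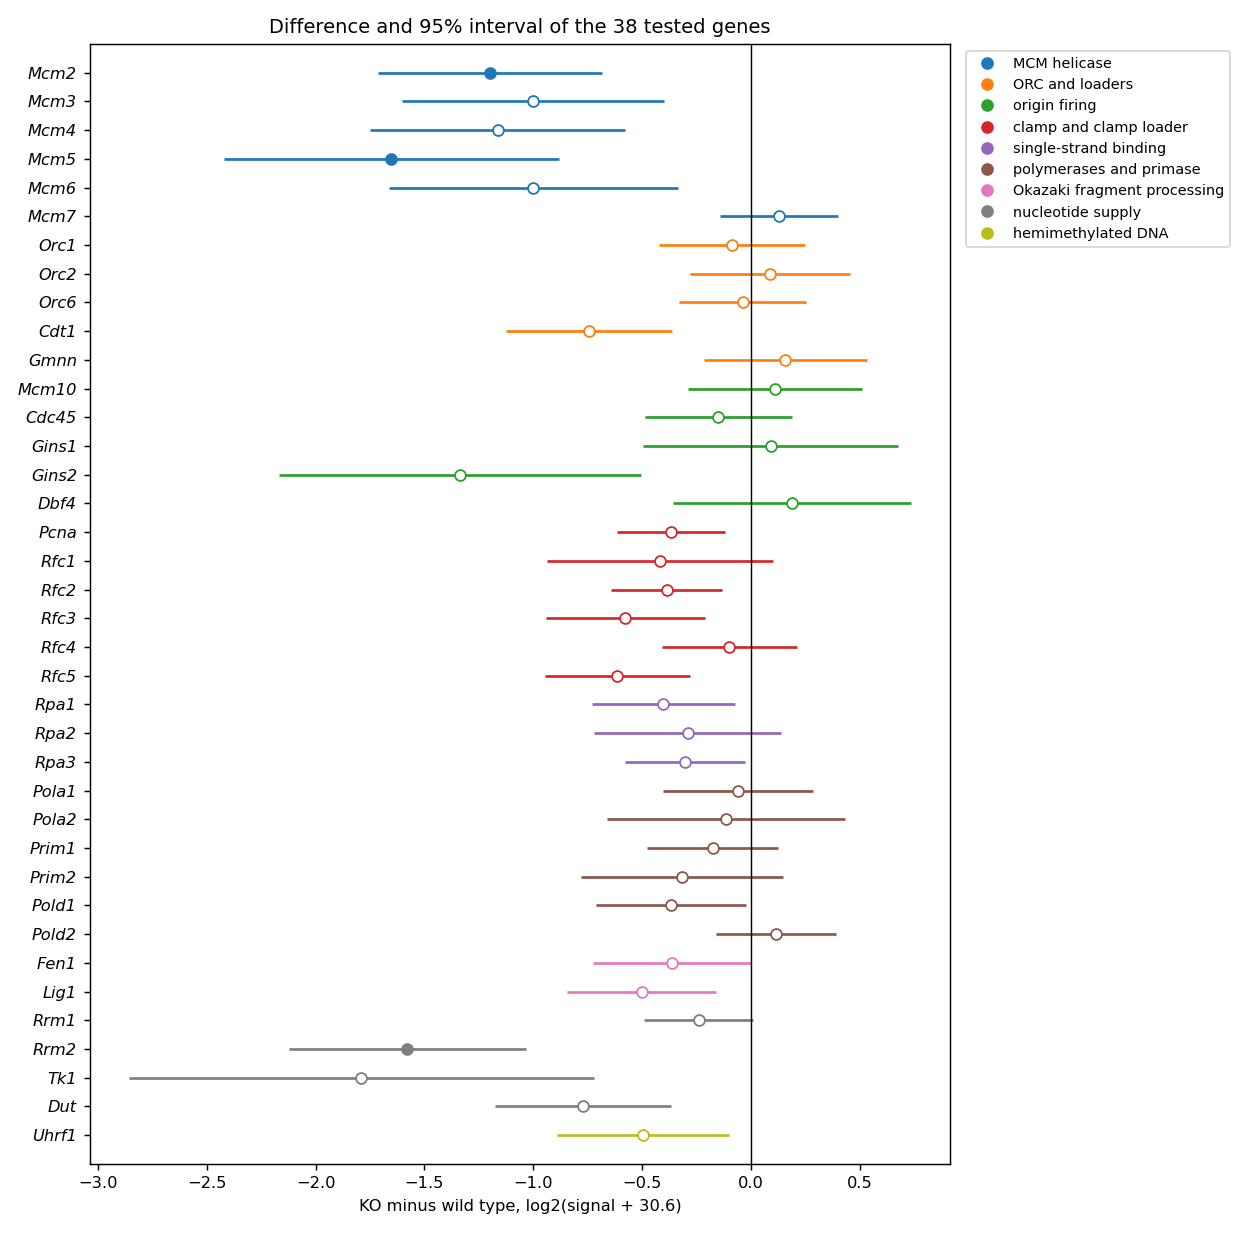
Difference between KO and wild type on the log2(signal + 30.6) scale for the 38 tested genes, as points with 95% confidence intervals from limma, coloured by role. Filled points mark the 3 genes with an adjusted p under 0.05 (Mcm2, Mcm5 and Rrm2), and Mcm7 at 0.13 lies apart from the other helicase subunits, which lie between -1.65 and -1.0.

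The MCM helicase held the first pair of fallen genes. Mcm2 gave 553.6, 850.1 and 704.1 units on WT 1, 3 and 4, and 237.8, 459.4, 256.0 and 230.0 on KO 1 to 4. All KO arrays were below all wild-type arrays, and KO 2 was the nearest to them. The mean was 703 ± 148 (SD, n = 3) in wild type and 296 ± 110 (SD, n = 4) in KO, a log2 difference of -1.20 ± 0.23 (SE; adjusted p = 0.0371), and -1.41 without KO 2 (adjusted p = 0.00177). A dimmer Mcm2 probe set gave -0.86 (adjusted p = 0.0672).

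Mcm5 read 438.4, 325.7 and 513.9 units in wild type and 92.9, 269.0, 61.6 and 92.5 in KO. The groups did not overlap, and KO 1, 3 and 4 lay far under KO 2. Its log2 difference was -1.65 ± 0.35 (SE; adjusted p = 0.0462), 3.14-fold lower on that scale, and -2.01 without KO 2 (adjusted p = 0.00113). A dimmer tested Mcm5 probe set gave -1.12 (adjusted p = 0.0604). The third, too dim to be tested, went the other way, with 42.1, 65.4 and 74.2 units in wild type and 76.1, 89.7, 107.2 and 87 in KO. The call of Mcm5 ended under median scaling, quantile normalization and an offset at the 5th percentile, where Mcm2 and Rrm2 were the listed genes that passed.

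Mcm3, Mcm4 and Mcm6 did not pass on their brightest probe sets, with log2 differences of -1.0 (adjusted p = 0.0982), -1.16 (0.0597) and -1.0 (0.128). Mcm3 had 585.3, 457.2 and 589.2 units in wild type and 261.3, 389.7, 133.3 and 298.1 in KO, without overlap. On a dimmer probe set Mcm3 did fall, from 227.2, 249.9 and 316.2 to 42.9, 61.1, 32 and 30.3 units, a log2 difference of -2.04 ± 0.24 (SE; adjusted p = 0.00926), and there KO 2 lay close to the other KO arrays. A further tested Mcm3 probe set gave -0.49 (adjusted p = 0.348). Of those too dim to be tested, one had 116.5, 190.4 and 137.2 units in wild type and 6, 55.1, 16.8 and 8.3 in KO. It gave -1.84 without overlap, and the other gave -0.54 with overlap. So the probe sets of this gene had the same sign and disagreed in size.

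Mcm4 had 521.1, 448.2 and 880.6 units in wild type and 180.6, 388.2, 236.1 and 221.4 in KO, and its second probe set gave a log2 difference of -0.42 (adjusted p = 0.204). Mcm6 had 758.3, 563.2 and 652.2 in wild type and 200, 577.4, 211.9 and 371.5 in KO, where KO 2 alone reached the wild-type range. Without KO 2 all of Mcm3, Mcm4 and Mcm6 passed on their brightest probe sets, at log2 differences of -1.19 (adjusted p = 0.0203), -1.36 (0.00859) and -1.28 (0.00892). The second probe set of Mcm4 did not pass there (0.125).

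Mcm7, the remaining subunit of the same ring, gave 2262.2, 1904.7 and 2551.9 units in wild type and 2226.6, 2434.7, 2398.4 and 2698.9 in KO. The groups overlapped, and the log2 difference was 0.13 with a 95% interval of -0.14 to 0.40 (adjusted p = 0.678), an interval that leaves out falls of the size estimated for Mcm2 to Mcm6. Its 3 other tested probe sets gave 0.26, 0.07 and 0.17. The difference between Mcm7 and the other subunits was not itself tested.

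**Figure D2:**
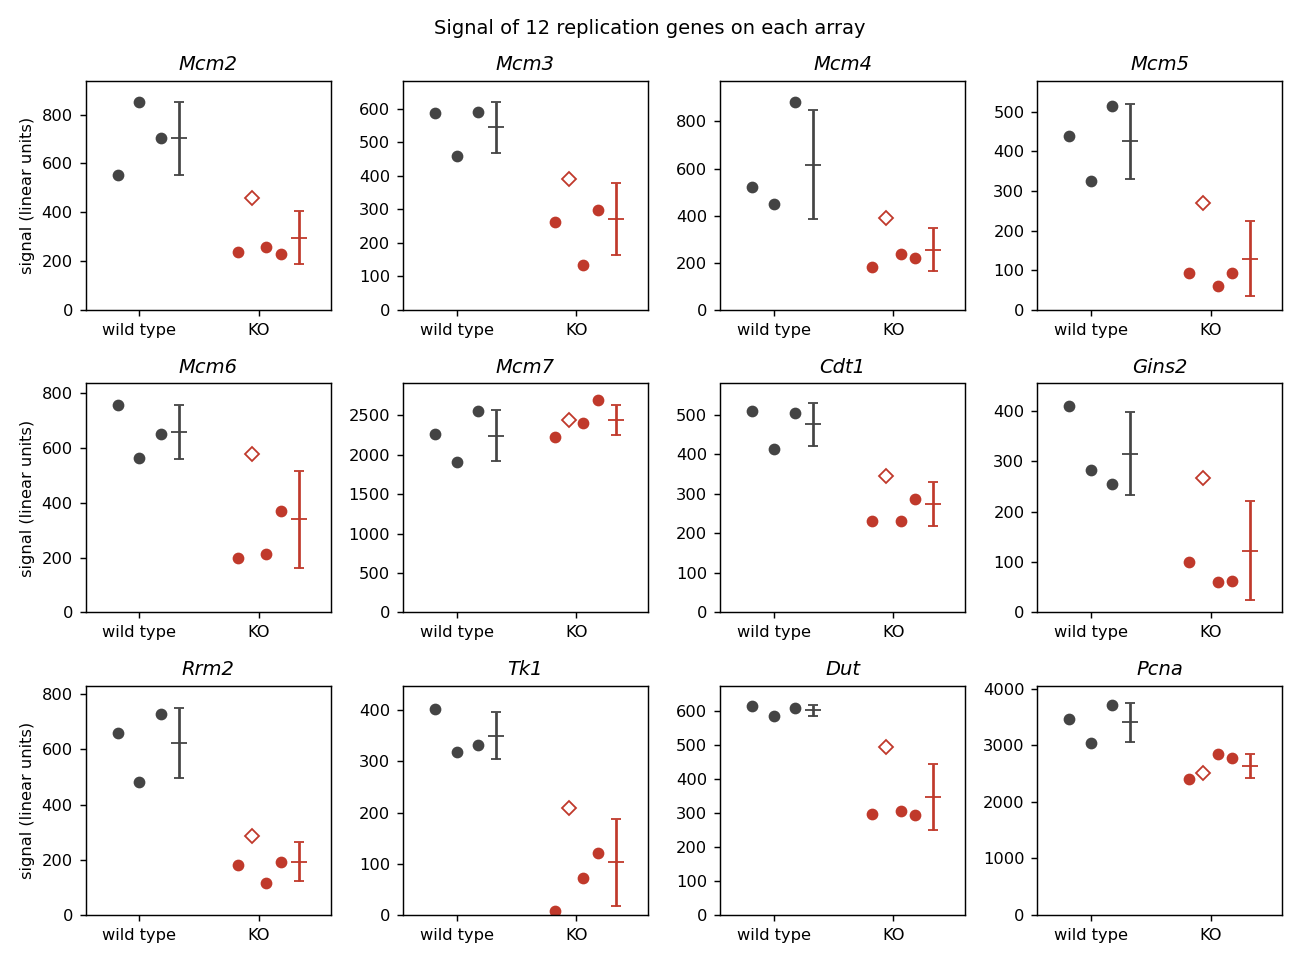
Signal of 12 of the genes on each array, in linear units from 0, with wild type in grey and KO in red, the mean ± SD beside each group and KO replicate 2 as an open diamond. The KO arrays of Mcm2, Mcm5, Rrm2, Tk1 and Dut lie under all wild-type arrays, with KO 2 the highest of the 4 KO arrays in each, while those of Mcm7 overlap the wild type.

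To set sequence beside these values, the bases upstream of their starts are shown for the 3 genes that fell, for Mcm3, which fell on a dimmer probe set, and, outside the rule that chose these, for Mcm6 and Mcm7 as the subunits whose groups overlapped. They are the 200 bases before each start in RefSeq (GRCm38.p6), 5′ to 3′ on the gene's strand. Capitals mark the words searched, on either strand: TTTCCCGC, TTTGGCGC, TTTCGCGC or TTTGCCGC, which E2F factors are known to bind, and CCAAT, which the factor NF-Y is known to bind.
Rrm2, chr12:24708054-24708253, plus strand: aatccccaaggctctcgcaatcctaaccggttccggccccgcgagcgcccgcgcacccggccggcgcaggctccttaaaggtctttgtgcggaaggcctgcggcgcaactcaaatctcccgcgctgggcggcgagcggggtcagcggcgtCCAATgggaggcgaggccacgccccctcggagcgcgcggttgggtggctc
Mcm2, chr6:88898781-88898980, minus strand: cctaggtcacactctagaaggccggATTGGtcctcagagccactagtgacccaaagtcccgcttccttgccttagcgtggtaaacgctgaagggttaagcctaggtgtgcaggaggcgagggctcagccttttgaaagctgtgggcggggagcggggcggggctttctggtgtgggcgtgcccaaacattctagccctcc
Mcm5, chr8:75109309-75109508, plus strand: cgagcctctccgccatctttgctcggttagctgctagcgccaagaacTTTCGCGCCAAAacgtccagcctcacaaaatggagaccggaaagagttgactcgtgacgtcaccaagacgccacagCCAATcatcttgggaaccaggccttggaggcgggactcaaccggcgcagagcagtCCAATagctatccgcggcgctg
Mcm3, chr1:20820313-20820512, minus strand: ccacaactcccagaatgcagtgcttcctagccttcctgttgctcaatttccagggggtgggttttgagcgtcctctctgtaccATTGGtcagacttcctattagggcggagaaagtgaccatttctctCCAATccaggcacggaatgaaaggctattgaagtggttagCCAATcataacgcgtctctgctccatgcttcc
Mcm6, chr1:128359706-128359905, minus strand: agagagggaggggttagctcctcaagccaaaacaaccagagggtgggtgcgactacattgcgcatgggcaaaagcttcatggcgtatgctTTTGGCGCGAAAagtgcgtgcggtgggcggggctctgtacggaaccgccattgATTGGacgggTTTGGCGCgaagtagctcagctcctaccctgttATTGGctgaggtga
Mcm7, chr5:138171884-138172083, minus strand: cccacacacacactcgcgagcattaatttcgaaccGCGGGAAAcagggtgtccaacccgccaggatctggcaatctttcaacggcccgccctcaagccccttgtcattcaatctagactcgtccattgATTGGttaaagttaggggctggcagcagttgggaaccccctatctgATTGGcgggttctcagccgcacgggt
Mcm3 has its E2F words in the first transcribed bases, chr1:20820266-20820295, minus strand: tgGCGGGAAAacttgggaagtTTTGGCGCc

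Mcm5 carries a pair of overlapping E2F words on opposite strands, 153 and 149 bases before the start, and Mcm6 carries such a pair 110 and 106 bases before the start and a single word at 47. Mcm7 has one word 165 bases before its start and another 16 bases past it. Mcm2 and Rrm2 have no E2F word of these letters in the 300 bases searched (250 before to 50 after the start). Rrm2 has a CCAAT 50 bases before the start and Mcm2 one at 175. An E2F word stood in Mcm3, Mcm5, Mcm6 and Mcm7 and in neither Mcm2 nor Rrm2. A search for these exact words in 300 bases cannot show that a gene lacks E2F sites, and a role of E2F was not tested.

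Of the 41 genes, 34 had an entry in the promoter table, and Gins1, Gins2, Rfc2, Gmnn, Mcm4, Pole and Prim2 are named only. An E2F word stood in 12 of the 34 (35.3%), namely Mcm3, Mcm5, Mcm6, Mcm7, Orc1, Cdc6, Cdt1, Rfc3, Pola1, Pold1, Lig1 and Uhrf1, against 4.45% of 10537 tested genes with an entry and 2.26% of all 32851 promoters of this length in the table. CCAAT stood in 22 of the 34 (64.7%), against 42.4% of tested genes and 37.4% of all promoters. In the mitosis genes with an entry, CCAAT stood in 22 of 28 (78.6%) and an E2F word in 1 (3.57%). In 52 other replication and nucleotide supply genes with an entry, the counts were 24 (46.2%) and 12 (23.1%). The word TTTGAA, known from genes of late cell cycle, stood in 5 of the 34 (14.7%), against 14.5% of tested genes, and in 19 of 28 mitosis genes with an entry. The 11 tested genes with an E2F word had a median log2 difference of -0.50 (range -1.65 to 0.13) and the 21 without one -0.29 (range -1.79 to 0.19), so both groups span nearly the whole range. Without KO 2, 5 of the 11 and 6 of the 21 fell, where 5.02% of all tested genes were called lower. A match of letters is a description of the sequence and not a measured binding site.

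Among the proteins that place the helicase on origins, none passed with all arrays (0 of 5 tested in limma; 1 at an unadjusted p under 0.05). Cdt1, which brings the MCM ring to the origin, had 510.7, 413.6 and 505.2 units in wild type and 231.4, 346.2, 232.1 and 287.7 in KO. The groups did not overlap, the log2 difference was -0.74 ± 0.17 (SE; adjusted p = 0.0617), and without KO 2 Cdt1 fell (-0.85, adjusted p = 0.0124). A dimmer tested Cdt1 probe set gave -0.58 (adjusted p = 0.133) and did not pass without KO 2 (0.117). Gmnn, the inhibitor of Cdt1, had 1317.9, 859.2 and 1135.4 units in wild type and 1413.6, 1369.2, 1134.6 and 996.9 in KO, with overlapping groups and a difference of 0.16 (95% interval -0.22 to 0.53).

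The ORC subunits that bind the origin itself lay close to 0 on their brightest probe sets. Orc1 had a log2 difference of -0.09 (95% interval -0.42 to 0.25), Orc2 0.09 (-0.28 to 0.46) and Orc6 -0.04 (-0.33 to 0.25). The arrays of the groups overlapped in each. Another Orc1 probe set, too dim to be tested, had 123.2, 178.2 and 93.4 units in wild type. In KO it had 37, 90, 67.1 and 14.8, without overlap, a log2 difference of -1.03. Cdc6, the loader that works with ORC, read between 3.6 and 29.8 units on the 7 arrays, under the lower limit for testing.

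Of the proteins that turn the loaded helicase on, Gins2, a GINS subunit, differed from the rest in value. It had 408.7, 281.5 and 254.1 units in wild type and 99.2, 266.4, 60.6 and 61.8 in KO, so that KO 2 alone overlapped the wild type. The log2 difference was -1.34 ± 0.38 (SE; adjusted p = 0.107) with all arrays and -1.72 without KO 2 (adjusted p = 0.00384). Its other probe set gave -0.93 (adjusted p = 0.185) and did not pass without KO 2 (0.0784). Gins1, its partner in the complex, had 119.5, 133.7 and 123.6 in wild type and 90.5, 100.1, 209.5 and 170.3 in KO, a difference of 0.09 (95% interval -0.49 to 0.68) in which KO 3 and 4 were above and KO 1 and 2 below all wild-type arrays. Mcm10, a scaffold for firing, was at 0.11, Cdc45 at -0.15 and Dbf4, the activator of the Cdc7 kinase, at 0.19 (95% interval -0.36 to 0.74), the highest log2 difference of the 38 genes. None of the 5 passed with all arrays (1 had an unadjusted p under 0.05 in limma).

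The clamp and its loader showed smaller differences that all had the same sign, with 0 of 6 passing (4 at an unadjusted p under 0.05 in limma). Pcna, the sliding clamp, had 3470.2, 3039.9 and 3721.6 units in wild type and 2401.8, 2513.2, 2848.5 and 2769.3 in KO. Its groups did not overlap and KO 2 lay within the other KO arrays, with a log2 difference of -0.37 ± 0.11 (SE; adjusted p = 0.133, and 0.108 without KO 2). Rfc5, a subunit of the clamp loader, had 395.9, 322.1 and 376.5 in wild type and 225.8, 246.7, 227.8 and 208.9 in KO, also without overlap, at -0.61 ± 0.15 (SE; adjusted p = 0.0725). Rfc3 had 281.6, 277.0 and 327.7 against 184.5, 222.1, 168.9 and 177.8, at -0.58 ± 0.17 (SE; adjusted p = 0.111). These loader subunits fell once KO 2 was left out (adjusted p = 0.0352 for Rfc5 and 0.0434 for Rfc3). A dimmer Rfc3 probe set gave -0.48 (adjusted p = 0.277) and did not pass without KO 2 (0.164). Rfc2 was at -0.39 without overlap (adjusted p = 0.126), Rfc1 at -0.42 (0.416) and Rfc4 at -0.10 (0.795).

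Rpa1, the large subunit of the protein that coats single-stranded DNA, had 2643.6, 2365.0 and 2709.8 units in wild type and 1644.7, 2563.0, 1864.3 and 1782.3 in KO. KO 2 lay inside the wild-type range and the other KO arrays below it. The log2 difference was -0.40 ± 0.15 (SE; adjusted p = 0.205), and -0.54 without KO 2 (adjusted p = 0.0161). Its partners Rpa2 and Rpa3 stood at -0.29 (adjusted p = 0.512) and -0.30 (0.258), and neither passed without KO 2 either.

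None of the enzymes that copy the strands passed. The polymerase alpha subunits Pola1 and Pola2 had log2 differences of -0.06 (95% interval -0.40 to 0.28) and -0.11 (-0.66 to 0.43), and the primase subunits Prim1 and Prim2, which lay the RNA primers, -0.18 (-0.48 to 0.12) and -0.32 (-0.78 to 0.15). Pold1, the catalytic subunit of polymerase delta, had 408.9, 529.1 and 519.3 units in wild type and 379.3, 421.8, 306.9 and 370.3 in KO, where KO 2 lay above the lowest wild-type array, at -0.37 (adjusted p = 0.273). Its partner Pold2 stood at 0.11 (95% interval -0.16 to 0.39). Pole, of polymerase epsilon, read 7.9 to 20.6 units and was not tested. Of these 6 tested genes 0 passed with all arrays and 0 without KO 2 (1 had an unadjusted p under 0.05 in limma with all arrays).

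For the joining of Okazaki fragments, Lig1, the DNA ligase of replication, had 486.3, 384.0 and 479.1 units in wild type and 266.2, 314.0, 354.1 and 299.5 in KO. The groups did not overlap, and the log2 difference was -0.50 ± 0.15 (SE; adjusted p = 0.135). Fen1, the flap nuclease, overlapped between groups at -0.36 (adjusted p = 0.300).

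Deoxynucleotide supply held the third fallen gene. Rrm2 had 659.6, 480.6 and 729.1 units in wild type and 180.4, 286.6, 116.1 and 191.0 in KO, and all KO arrays lay well under the lowest wild-type array. The mean was 623 ± 128 (SD, n = 3) in wild type and 194 ± 70.3 (SD, n = 4) in KO, with a log2 difference of -1.58 ± 0.25 (SE; adjusted p = 0.0219), 2.99-fold lower on that scale, and -1.76 without KO 2 (adjusted p = 0.00177). Its other probe sets gave -0.99 (adjusted p = 0.0713) and -1.35 (0.107).

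Rrm1, the large subunit that pairs with Rrm2, had 1029.4, 1028.9 and 1005.0 units in wild type and 793.8, 912.0, 818.9 and 923.7 in KO. The groups did not overlap, but the log2 difference was -0.24 (95% interval -0.49 to 0.01; adjusted p = 0.327). Another Rrm1 probe set of nearly the same brightness gave -0.47 (95% interval -0.80 to -0.14; adjusted p = 0.145), with overlapping groups. It passed in the second deposit run alone (adjusted p = 0.0487). Neither interval reaches the fall estimated for Rrm2. The difference between the subunits was not tested.

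Tk1, the thymidine kinase of the salvage route, had 402.2, 317.3 and 331.3 units in wild type and 8.0, 209.0, 72.5 and 121.0 in KO. KO 1 lay near the bottom of the scale and KO 2 nearest the wild type, without overlap. The log2 difference of -1.79 ± 0.48 (SE; adjusted p = 0.0965) was the lowest of the 38 genes with all arrays, with KO 1 under the added 30.6 units and a wide spread between KO arrays. In the second deposit run alone, which leaves out KO 1, Tk1 stood at -1.50, above Mcm5 (-2.05) and Rrm2 (-1.79). Tk1 passed without KO 2 (-2.17, adjusted p = 0.0148). Dut, the dUTPase that makes the precursor of thymidylate, had 614.2, 585.1 and 608.1 in wild type and 298.4, 494.6, 306.5 and 293.3 in KO. KO 2 was apart from the other KO arrays yet under all wild-type arrays, at -0.77 ± 0.18 (SE; adjusted p = 0.0653), and -0.94 without it (adjusted p = 0.00339). Tyms, the thymidylate synthase, read 16.1 to 98.6 units and was not tested.

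Uhrf1, which reads hemimethylated DNA behind the fork, had 273.2, 265.2 and 311.2 units in wild type and 152.7, 235.5, 206.0 and 180.7 in KO. The groups did not overlap, and the log2 difference was -0.49 ± 0.18 (SE; adjusted p = 0.195).

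**Figure D3:**
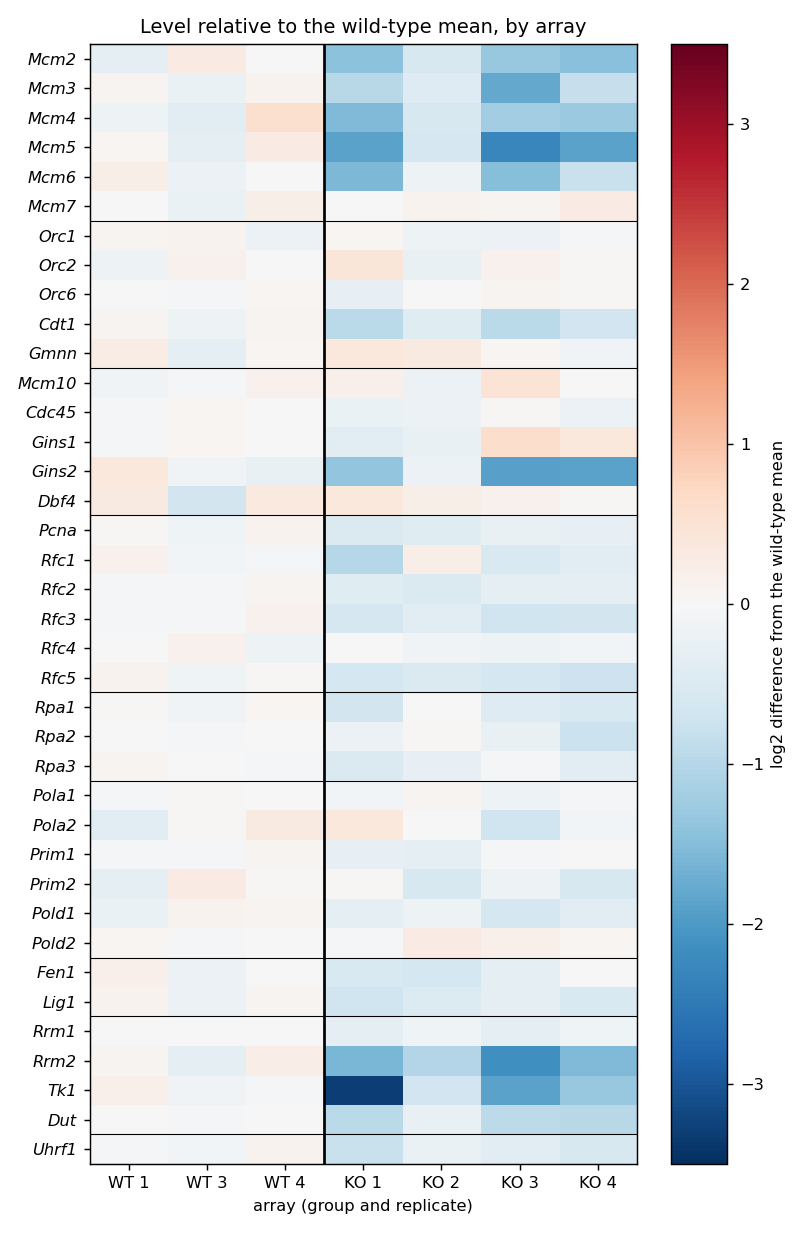
Level of each of the 38 tested genes on each array, as the log2 difference from the wild-type mean, with genes in rows grouped by role and a line between wild type and KO. KO replicate 2 is paler than the other KO arrays in the rows of Mcm2 to Mcm6, where its median is -0.56 against -1.30 to -1.56 on the other KO arrays.

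Read by array over the 38 tested genes, the median difference from the wild-type mean was 0.03, -0.07 and 0.05 on WT 1, 3 and 4, and -0.46, -0.24, -0.32 and -0.36 on KO 1 to 4. Every KO array was below every wild-type array, and KO 2 was the nearest to 0. For Mcm2 to Mcm6 the array medians were 0.06, -0.23 and 0.12 in wild type and -1.56, -0.56, -1.50 and -1.30 in KO. Placed on a scale from the wild-type mean (0%) to the mean of the other KO arrays (100%), the signal of KO 2 stood at 73.1% for Rrm2, 52.7% for Mcm2, 45.7% for Mcm5, 49.9% for Tk1, 35.6% for Dut, 20.3% for Mcm6 and 1.21% for Rpa1. These places are of the brightest probe sets and changed with the probe set: on dimmer tested ones KO 2 stood at 12.8% and 43.5% for Rrm2, 72.2% for Mcm5 and 62.9% for Rpa1, where it lay below all wild-type arrays. KO 2 was the highest KO array in 18 of the 31 tested genes whose difference was below 0 (58.1%), against 44.5% of all such genes.

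The tested probe sets of a gene mostly had the same sign. The 41 genes have 90 probe sets, of which 69 were tested, and 0 of these rose while 4 fell (174 of all 27022 tested probe sets, or 0.644%, were called lower and 0.951% higher), 1 each of Mcm2, Mcm3, Mcm5 and Rrm2. Among 31 tested probe sets other than the brightest, 2 differed in sign from the brightest one of their gene. Without KO 2, 20 probe sets of 13 genes fell and 0 rose, where 4.21% of all probe sets were called lower and 3.14% higher.

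Other genes of the same pathways were taken from further lists made by known function. These lists too were chosen with earlier results of these data known, so their contrast with the 41 genes is not an independent comparison. Of 33 tested replication genes outside the 41, none fell and none rose (2 at an unadjusted p under 0.05 in limma, 1 of them lower), with a median log2 difference of -0.07. Their smallest p-values belonged to Rnaseh2c, a subunit of the enzyme that removes RNA from DNA, at 0.62 (adjusted p = 0.0754), and Pole2, a polymerase epsilon subunit, at -0.64 (adjusted p = 0.215), followed by Tipin (-0.22) and Orc3 (-0.24). Of 22 tested genes of nucleotide synthesis outside the 41, none passed either (9 at an unadjusted p under 0.05 in limma, 6 of them lower), with a median of -0.15. Impdh1, an enzyme of guanine nucleotide synthesis, stood at 1.14 (adjusted p = 0.0698), and Umps and Cad, both of pyrimidine synthesis, at -0.58 (0.104) and -0.52 (0.133), with Gmps at -0.27 (0.211). Without KO 2, Cad and Atic fell and Rnaseh2c rose, where 5.02% of all tested genes were called lower and 3.4% higher.

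The E2F factors, their DP partners and the RB family, known regulators of the replication genes, had 0 of 12 tested genes past the threshold (2 at an unadjusted p under 0.05 in limma, both lower) and a median log2 difference of -0.08. E2f6, an E2F that represses, stood at -0.52 (adjusted p = 0.0927) and Rbl1, the RB relative p107, at -0.73 (0.118), and Rbl1 fell without KO 2 (adjusted p = 0.0287). Rbl2 and Rb1 lay at 0.26 and 0.22. Of 28 tested mitosis genes, with a median of -0.55, 1 fell, the spindle midzone protein Prc1 (-1.14, adjusted p = 0.0375). Without KO 2, 8 of them fell. Over all tested genes the shares called lower were 0.71% with all arrays and 5.02% without KO 2. Top2a, Birc5 and Nuf2 of that list stood at -1.24 (adjusted p = 0.0613), -1.39 (0.0655) and -1.79 (0.0711). In 13 of the 28, all KO arrays were below all wild-type arrays, against 8.37% of all tested genes.

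**Figure D4:**
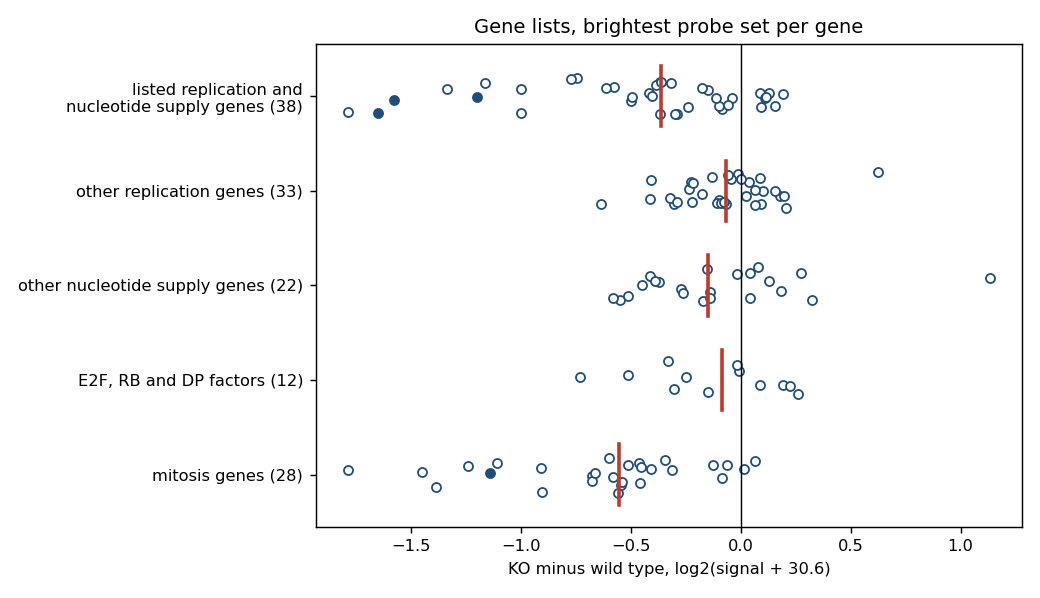
Difference between KO and wild type on the log2(signal + 30.6) scale for each tested gene of 5 lists, with the number of tested genes in brackets, filled points for an adjusted p under 0.05 and a red bar at the list's median. The medians are -0.37 for the 38 listed genes, -0.07 and -0.15 for the other replication and nucleotide supply genes, -0.08 for the E2F, RB and DP factors and -0.55 for the mitosis genes.

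Markers of cell types that the tissue can hold were read beside these genes. Of the preadipocyte and fibroblast markers, 0 of 11 tested passed with all arrays (4 at an unadjusted p under 0.05 in limma). All 11 lay below 0, with a median log2 difference of -0.33. Without KO 2, 4 fell (Cd34, Lum, Fap and Dpt), where 5.02% of all tested genes were called lower. The summed signal of the 11 was 79389 to 87111 on the wild-type arrays and 50428, 80823, 71713 and 77534 on KO 1 to 4. Their array medians were -0.82, -0.06, -0.20 and -0.19 on KO 1 to 4, so KO 1 lay far below the others. In the second deposit run alone, which leaves out WT 1, KO 1 and KO 2, Pdgfra, Dlk1 and Col3a1 lay above 0 (0.26, 0.03 and 0.05). The others lay below 0 there, and Lum passed (-0.87, adjusted p = 0.0173 in limma). Of the neutrophil markers 0 of 7 passed with all arrays (4 at an unadjusted p under 0.05 in limma), and all 7 lay above 0, at a median of 0.56. Without KO 2, 2 rose (Ngp, adjusted p = 0.0322, and Lcn2, 0.00859), where 3.4% of all tested genes were called higher. Both also rose with the deposit run as a covariate (0.0455 and 0.0286). In the second run alone S100a8, S100a9, Ngp, Camp and Lcn2 rose (adjusted p = 0.0157, 0.0180, 0.0184, 0.0184 and 0.0245) and Ltf and Mpo did not. The share of all tested genes called higher in these run fits was not counted. The summed signal of the 9 measured markers was 6931, 4604 and 4739 on WT 1, 3 and 4, and 6076, 6868, 8769 and 10789 on KO 1 to 4. Endothelial, macrophage, erythroid, lymphocyte and skeletal muscle markers had medians of -0.11, 0.03, -0.10, -0.21 and -0.03, and 0 of 10, 10, 5, 4 and 9 tested passed with all arrays (4, 1, 1, 0 and 0 at an unadjusted p under 0.05 in limma). Without KO 2 the macrophage marker Lyz2 rose (adjusted p = 0.0181) and the erythroid marker Tfrc fell (0.0441). No marker was at 0 on the arrays, but some were very dim, such as the lymphocyte marker Cd2 at 3.1 units on KO 3. Without detection calls a signal above 0 does not show that a cell type was present. The part of these cell types in the lower levels of the replication genes was not tested.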

How the data were processed

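Brown fat RNA of 4 KO and 3 wild-type samples was hybridised to 1 array each. The authors deposited linear signal intensities per probe set; the submitters' processing notes name GCOS 1.2. The 2% trimmed mean was 500.003 on each array, so the scaling was kept. The table holds no detection calls.

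Of 45101 probe sets, 64 controls were left out, and 34945 carried 1 gene symbol. The 20th percentile of all values, 30.6, was added before taking log2, which understates changes of low signals. Probe sets under the 40th percentile of the mean over all arrays were not tested. KO was compared with wild type by limma (version 3.58.1, under R 4.3.3; a mean-variance trend in eBayes, two-sided, Benjamini-Hochberg, threshold 0.05), without covariates, and the fit was tested on simulated data. The number of arrays limits the precision.

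The members, lists and naming rule were chosen with earlier results of these data known. Named were members that passed, the 2 smallest p-values per role, and up to 4 genes per further list. Offset, filter, scaling, weights, blocks and left-out arrays were varied.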

Additional observations from a re-analysis of the deposited data

Results flagged for a closer look

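Among the KO arrays of 39 quantities checked (the 38 tested genes and the dimmer Mcm3 probe set that fell), 4 had one array far from the other 3, judged by the gap to the nearest array as a share of the range. For independent, normally distributed values chance alone gives about 1 in 20. These genes share the same KO arrays, and no share over all tested genes was counted, so the count cannot be read against that rate. The share was 0.887 for Mcm2 and 0.849 for Mcm5, with KO replicate 2 the highest in both. For Dut it was 0.934, again with KO replicate 2 the highest. For Cdc45 it was 0.942, with KO replicate 3 at 273.6 units against 225.3, 228.1 and 228.0 on the other KO arrays.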

How the results depend on the processing

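The number of arrays and the signal over background limit what can be called, and Cdc6, Pole and Tyms were too dim to be tested. The median over the 41 genes stayed between -0.38 and -0.29 in the fits run. The 3 fallen genes became 5 with the deposit run as a covariate, 12 with array weights, 5 with a filter at the 60th percentile (Mcm5 was not tested there), 6 with probe sets averaged per gene, 5 with 1 probe set per gene in the fit, 1 with no filter, 0 without the mean-variance trend (18 at an unadjusted p under 0.05 in limma) and 6 in the second deposit run alone, an alternative added after the data were seen, and 2 (Mcm5 lost) under median scaling, quantile normalization and an offset at the 5th percentile; left-out arrays gave 0 to 13. No fit called a listed gene higher or reversed a called gene. Where counts moved, the cause was not tested.

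In the same order of settings, fallen mitosis genes (1) numbered 2 (deposit run), 6 (weights), 3 (60th percentile), 0 (no filter, no trend, median scaling) and 2 (second run), with 0 to 8 for left-out arrays. Other nucleotide genes (0) numbered 1 with the deposit run, weights, averaging and the second run, and 0 to 2 for left-out arrays. E2F, RB and DP factors (0) numbered 1 with weights and 0 to 1 for left-out arrays. The probe sets lower in KO (174) numbered 293 (deposit run), 682 (weights), 100 (averaging), 78 (median scaling), 36 (no filter), 3 (no trend) and 375 (second run), and 0 to 1138 for left-out arrays. The probe sets higher in KO (257) numbered 630 (weights), 145 (averaging), 158 (median scaling), 64 (no filter) and 3 (no trend), and 7 to 848 for left-out arrays.

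The labels share replicate numbers 1, 3 and 4, and deviations of samples of one number had correlations of 0.0567, 0.149 and 0.105. WT 3 and WT 4 each correlated best with the KO array of their own number. WT 1 correlated best with KO 2 (0.183), which has no wild-type array of its number. The labels do not state pairs, so the numbers were not taken as pairs, though these correlations do not exclude pairing. With the replicate number as a block, which leaves KO 2 without a partner, 11 listed genes, 11 mitosis genes, 2 other nucleotide genes and 2 E2F, RB and DP factors were lower, with 1244 probe sets lower in KO and 939 probe sets higher in KO.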
